A study of Mus musculus with 12 samples.

Results

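The integrin alpha subunit genes Itga4, Itga8, Itga7 and Itga11, were followed through the RNA-seq counts of all 12 mice of the study. They were chosen as the alpha subunits whose row of the count table could be named. The deposited count table carries no gene names, and a row was named where its mean normalized count was the single match to a mean in the study's own table of DESeq2 results. The 4 genes are 4 of the 15928 genes counted and 4 of the 1349 genes with a recovered name. Of 18 listed alpha subunits 4 were named in this way, and of 8 listed beta subunits none was. Itgad and Itgax stood in the study's table without a single matching row and were not analysed here.

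Integrins are receptors made of 1 alpha and 1 beta subunit that span the cell membrane, bind matrix proteins or receptors on other cells outside, and couple them to the actin cytoskeleton inside. The alpha subunit largely sets which ligand is bound. The alpha 4 subunit binds fibronectin and VCAM1 and is best known from the adhesion of leukocytes to vessel walls. The alpha 8 subunit binds ligands with an Arg-Gly-Asp motif, nephronectin among them, the alpha 7 subunit binds laminins and is known from muscle, and the alpha 11 subunit binds fibrillar collagen and is known from fibroblasts. In the brain, integrins act in the attachment of glial endfeet to the basement membrane, in synaptic plasticity and in the movement of immune cells.

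RNA came from brain sections that held dorsal hippocampus and cortex of 5 wild-type (Wt) and 7 transgenic (Tg) mice. The Tg mice were Tg2576 mice, which carry human APP with the Swedish mutation under a prion protein promoter. All were about 11 months old by their labels, and the study's methods give 11 to 14 months. Of the Wt mice 3 were labelled female and 2 male, and of the Tg mice 4 female and 3 male. Libraries were made in 2 batches. All 4 mice of batch 2 were either Wt and female (2 mice) or Tg and male (2 mice), and within that batch the effects of sex and genotype cannot be told apart. Mice are referred to by the numbers of their labels. Each mouse gave 1 library with 15768135 to 20996174 counts on genes. App, checked as the gene of the transgene, was between 1214 and 1496 CPM in Wt mice and between 2991 and 5727 CPM in Tg mice, where CPM is the count of a gene scaled to a common library size after TMM normalization. Xist, the RNA of the inactive X chromosome, was between 149.5 and 233.4 CPM in the mice labelled female and at most 0.056 CPM in the males, except for Wt mouse 41, which is labelled male and had 198.9 CPM. The main fits for sex, genotype and their interaction are therefore also given without mouse 41. In whole tissue, fewer cells of a type and less RNA per cell cannot be told apart.

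The bases before the start of transcription are shown for 3 of the genes, because the study also followed DNA methylation and CpG sites are where it is placed. Methylation values were not analysed here. Each run is the reference sequence of RefSeq on GRCm38.p6, 5′ to 3′ on the gene's own strand, from 250 to 51 bases before the start, with every CpG in capitals. The runs lie at chr2:79255176-79255375 (plus strand) for Itga4, chr2:12301995-12302194 (minus strand) for Itga8 and chr9:62677605-62677804 (plus strand) for Itga11. For Itga4 the start so used is the gene start in the coordinates given below, and for Itga8 and Itga11 it is not.
Itga4: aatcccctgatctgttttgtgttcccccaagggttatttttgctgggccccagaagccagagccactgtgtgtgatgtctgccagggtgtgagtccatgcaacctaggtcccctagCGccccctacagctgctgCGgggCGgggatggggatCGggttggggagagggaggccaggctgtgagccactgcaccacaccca
Itga8: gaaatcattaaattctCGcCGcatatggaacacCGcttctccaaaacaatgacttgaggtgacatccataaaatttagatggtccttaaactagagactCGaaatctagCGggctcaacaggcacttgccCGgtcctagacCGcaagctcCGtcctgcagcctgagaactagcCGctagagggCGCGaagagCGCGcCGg
Itga11: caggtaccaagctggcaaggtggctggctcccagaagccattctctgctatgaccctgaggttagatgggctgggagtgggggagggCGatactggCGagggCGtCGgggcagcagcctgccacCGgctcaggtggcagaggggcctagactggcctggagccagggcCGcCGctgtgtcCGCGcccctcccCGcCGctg
The run of Itga8 held 14 CpG sites, that of Itga11 held 11 and that of Itga4 held 4, against a median of 4 over 32851 promoter runs of the same length. Fewer sites than in Itga8 were found in 80.2% of all runs, fewer than in Itga11 in 73.3% and fewer than in Itga4 in 45.8%. A GC box, searched as GGGCGG on both strands, was present once before Itga4, where it holds 1 of the CpG sites shown, and not in these letters before the other two. Of all runs 24.6% held it. Neither a CCAAT box (CCAAT, both strands, in 28.4% of all runs) nor a TATA box (TATAAA, both strands, in 9.14%) was in any of the 3 runs. Itga7 was matched to no promoter sequence.

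In GENCODE M21 on GRCm38, the build of the counts, Itga4 (ENSMUSG00000027009.18) spans chromosome 2 from 79255426 to 79333123 on the plus strand, and its longest transcript has 28 exons. Itga8 (ENSMUSG00000026768.10) lies on the minus strand of the same chromosome, from 12106632 to 12301922, with 30 exons. Itga7 (ENSMUSG00000025348.9) spans chromosome 10 from 128933818 to 128958282 on the plus strand, with 25 exons. Itga11 (ENSMUSG00000032243.8) spans chromosome 9 from 62677826 to 62783982 on the plus strand, with 30 exons. Exons of 3 of the genes are overlapped by a gene of the opposite strand, those of Itga4 by Cerkl, those of Itga8 by the antisense RNA E030013I19Rik and those of Itga7 by Mettl7b. The study gives its totals as unambiguous, unique reads. The counting is not stated to use strand, and how reads from these stretches were assigned is not stated. No gene overlapped Itga11.

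All 4 genes were expressed at a low level, and Itga11 was the lowest in every mouse. Divided by the length of all exons of the gene, the mean over the 12 mice was 1.39 ± 0.37 CPM per kilobase (SD, n = 12) for Itga4, 1.31 ± 0.40 for Itga7, 1.06 ± 0.29 for Itga8 and 0.447 ± 0.157 for Itga11. The means of the first 3 differed by less than the SD of Itga4. Itga4 was above Itga8 in 12 of 12 mice, although in the closest mouse the 2 levels were nearly equal, and by up to 2.01-fold. The order of Itga4 and Itga7 was not settled. Per kilobase of all exons Itga4 was above Itga7 in 5 of 5 Wt and 2 of 7 Tg mice (median ratio 1.21 and 0.687), and per kilobase of the longest transcript, a length taken after the data were seen, in 2 of 5 and 2 of 7 (median ratio 0.859 and 0.488). By either length Itga4 was above Itga8, and all 3 were above Itga11, in 12 of 12 mice. In raw counts, Itga11 had 15 to 67 reads per library, Itga8 87 to 197, Itga7 101 to 353 and Itga4 242 to 534, so that counting error weighs most on Itga11.

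Whether the alpha subunits differ in expression between the genotypes was the first question. Itga4 and Itga8 were lower in Tg than in Wt mice on average and Itga7 and Itga11 were higher. None of the 4 differences passed the test over all genes. At an adjusted p under 0.1, 0 of the 4 genes were called when edgeR was run with terms for sex, batch and genotype, and 0 by DESeq2 or limma-voom. Over all genes, edgeR called 0.00628% and DESeq2 0.352% at that threshold. At an unadjusted p under 0.05, 2 of the 4 genes passed in edgeR, 3 in DESeq2 and 2 in limma-voom, against 7.19% of all 15928 genes in edgeR. The 4 genes, unlike all 15928, were already selected on the same contrast. Names could be recovered mainly for genes that the study's own test ranked near the top in these mice. Of the 1349 named genes 1097 (81.3%) had an unadjusted p under 0.05 here.

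**Figure D1:**
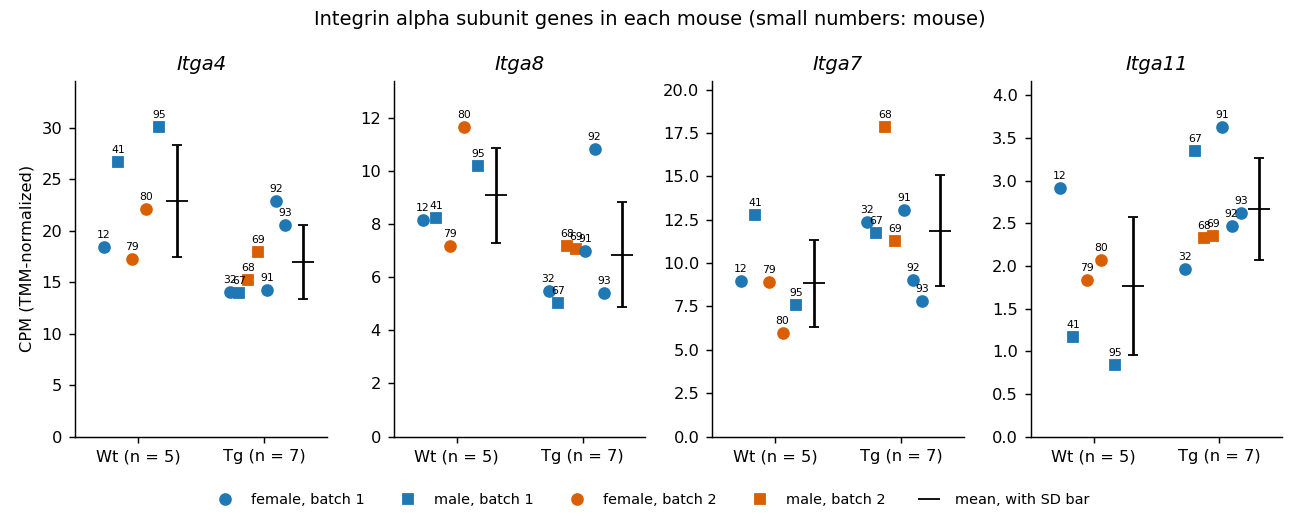
Expression of the 4 genes in each mouse, in TMM-normalized CPM on axes that start at 0, with the mean and SD of each genotype in black and sex and batch by symbol and colour. Wt and Tg mice overlapped for every gene, with the mean of Tg mice lower for Itga4 and Itga8 and higher for Itga7 and Itga11.

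Itga4, the alpha 4 subunit, had 18.4 CPM in Wt mouse 12, 26.6 in mouse 41, 17.3 in mouse 79, 22.1 in mouse 80 and 30.1 in mouse 95. The 7 Tg mice had 13.95 CPM at the lowest, 15.3 at the median and 22.9 at the highest. Of the Tg mice 4 lay below the lowest Wt mouse, and the 2 highest Wt mice, 41 and 95, lay above every Tg mouse. Mean expression was 22.9 ± 5.42 CPM (SD, n = 5) in Wt and 17.0 ± 3.57 (SD, n = 7) in Tg mice. This was a log2 fold change of -0.44 with a standard error of 0.16, for which edgeR gave an unadjusted p of 0.0190 and an adjusted p of 0.62. The exact permutation test of log2 CPM over all 792 splits gave a two-sided p of 0.0505, where the smallest possible is 0.00126.

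Itga8, the alpha 8 subunit, had 8.17 CPM in Wt mouse 12, 8.22 in mouse 41, 7.19 in mouse 79, 11.6 in mouse 80 and 10.2 in mouse 95. The Tg mice ranged from 5.02 over a median of 6.98 to 10.8 CPM. Of the 7 Tg mice 6 lay below the lowest Wt mouse. The seventh, mouse 92, was the highest Tg mouse and exceeded 4 of the 5 Wt mice. The means were 9.08 ± 1.80 CPM (SD, n = 5) in Wt and 6.85 ± 1.97 (SD, n = 7) in Tg mice. This was a log2 fold change of -0.40 with a standard error of 0.20 (edgeR, p = 0.0701, adjusted p = 0.726; exact permutation, two-sided p = 0.0581). Without mouse 92 the log2 fold change of Itga8 was -0.55, and edgeR gave an unadjusted p of 0.00553 and an adjusted p of 0.607.

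Itga7, the laminin-binding alpha 7 subunit, had 8.99 CPM in Wt mouse 12, 12.8 in mouse 41, 8.93 in mouse 79, 5.97 in mouse 80 and 7.60 in mouse 95. The Tg mice had a lowest value of 7.82, a median of 11.8 and a highest value of 17.8 CPM. The groups overlapped widely, with 2 Tg mice above the highest Wt mouse and 2 Wt mice below the lowest Tg mouse. The means were 8.85 ± 2.51 CPM (SD, n = 5) in Wt and 11.9 ± 3.22 (SD, n = 7) in Tg mice. This was a log2 fold change of 0.41 with a standard error of 0.20 (edgeR, p = 0.0558, adjusted p = 0.701; exact permutation, two-sided p = 0.101).

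Itga11, the collagen-binding alpha 11 subunit, had 2.92 CPM in Wt mouse 12, 1.17 in mouse 41, 1.83 in mouse 79, 2.07 in mouse 80 and 0.844 in mouse 95. The Tg mice had 1.97 CPM at the lowest, 2.47 at the median and 3.63 at the highest. All 7 Tg mice were above the Wt median, yet only 2 exceeded Wt mouse 12. The means were 1.77 ± 0.81 CPM (SD, n = 5) in Wt and 2.67 ± 0.60 (SD, n = 7) in Tg mice. On the log2 scale the difference was 0.68 with a standard error of 0.28 (edgeR, p = 0.0332, adjusted p = 0.665; exact permutation, two-sided p = 0.0354). It was 0.94 without Wt mouse 12 and 0.45 without Wt mouse 95.

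The difference of each gene was also read beside the makeup of the sections, which differed between mice. The summed level of 14 of 15 listed choroid plexus markers lay between 104.5 and 594 CPM in Wt and between 100.1 and 2356 CPM in Tg mice, and 5 of the Tg mice exceeded the highest Wt mouse. Of these 14 markers 3 (Slc4a5, Kcne2 and Tmem72) were at 0 in at least 1 mouse. The summed level of 11 of 12 oligodendrocyte markers lay between 1125 and 3723 CPM in Wt and between 1538 and 6230 CPM in Tg mice, and 4 Tg mice exceeded the highest Wt mouse, with none of the 11 at 0. All 14 and all 11 had a positive log2 fold change. At an adjusted p under 0.1 none was called by edgeR or limma-voom, and DESeq2 called Prlr and Aspa, 1 of each list. At an unadjusted p under 0.05 all 14 and all 11 passed in edgeR, beside 7.19% of all genes and 81.3% of the named genes. Of the 1349 named genes 754 had a positive log2 fold change. A marker could be followed mainly where the study's own test ranked it near the top, so these counts describe genes selected on the same contrast.

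With the mean log2 level of the choroid plexus markers as a further covariate, the log2 fold change of Itga7 was 0.17 instead of 0.41 (edgeR, unadjusted p = 0.467), and that of Itga8 was -0.62 instead of -0.40 (edgeR, unadjusted p = 0.0273, not called). With the oligodendrocyte markers in its place, Itga7 stood at 0.09 (edgeR, unadjusted p = 0.719), Itga4 at -0.24 (unadjusted p = 0.260), Itga8 at -0.49 and Itga11 at 0.54. In the 8 mice of batch 1 alone, the log2 fold change was -0.49 for Itga4, -0.50 for Itga8, 0.22 for Itga7 and 0.67 for Itga11. The value of Itga7 was thus smaller than its standard error, 0.23 with either marker score and 0.26 in batch 1. Both scores are made of markers selected mainly on the same contrast, and both were higher on average in Tg mice. With such a covariate, section makeup and genotype cannot be told apart. The part of the section makeup in these differences was not tested.

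**Figure D2:**
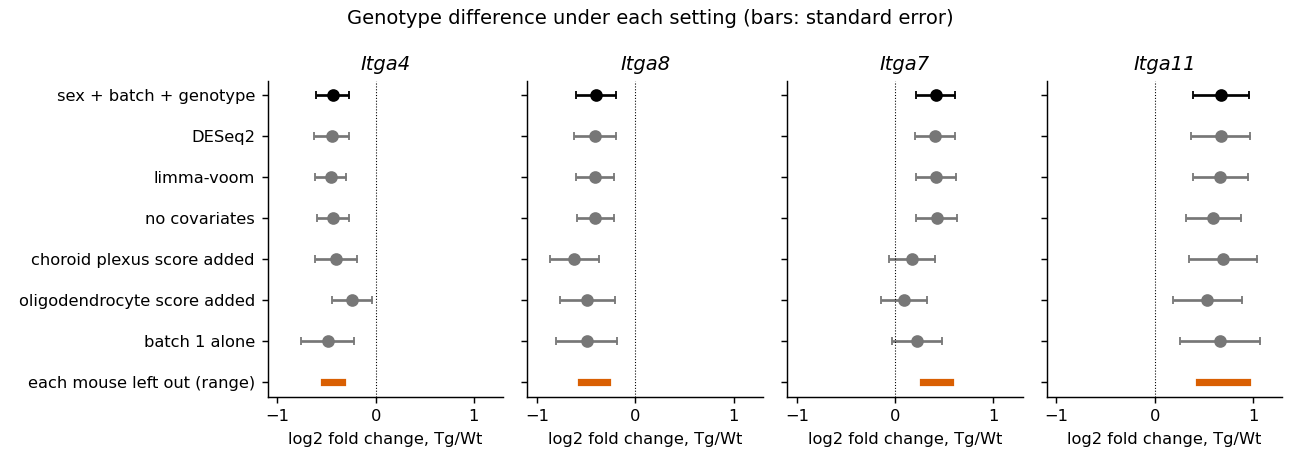
Log2 fold change of each gene, Tg over Wt, with its standard error under 7 settings, and the range with each mouse left out in turn as a thick line. The sign was the same at every setting shown, and Itga7 came closest to 0, at 0.09 with the oligodendrocyte score.

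Markers of other cell types could be followed only in part. The 4 named microglia and macrophage markers of 15 listed, none at 0, summed to between 58.8 and 79.9 CPM in Wt mice. In Tg mice they summed to between 76.8 and 103.2 CPM, and 5 Tg mice exceeded the highest Wt mouse. The 5 named astrocyte markers of 8 summed to 2740 to 3537 CPM in Wt and 2492 to 3122 CPM in Tg mice. Slc1a2 made up the largest part. Of these 5 markers 3 had a positive log2 fold change (Gfap at 1.01) and 2 a negative one (Slc1a2 at -0.32). At an adjusted p under 0.1 DESeq2 called Lyz2 of the first list and Gfap and Agt of the second. By edgeR and limma-voom none was called. DESeq2 called 0.352% of all genes, and these markers too were mainly selected on the same contrast. The 3 named neuron markers of 14 summed to 3314 to 5207 CPM and 2786 to 4012 CPM, and the 2 meningeal markers of 9 (Igf2 and Mgp) to 11.8 to 60.4 CPM and 18.3 to 60.0 CPM. No gene of the lists for leukocytes or for endothelial and mural cells had a recovered name, so that the cells best known for the alpha 4 subunit could not be followed here. The part of these cell types in the differences was not tested.

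Sex was compared within the same fit. None of the 4 genes passed for sex at an adjusted p under 0.1 or at an unadjusted p under 0.05 in edgeR, DESeq2 or limma-voom, with 0% of all genes called by edgeR at the first threshold, 1.1% by DESeq2, and 11.3% in edgeR at the second. The log2 difference, female minus male, was 0.43 for Itga11 (standard error 0.28), 0.09 for Itga8 (0.20), -0.15 for Itga4 (0.17) and -0.36 for Itga7 (0.20). Without mouse 41 these values were 0.33, 0.07, -0.13 and -0.20. Some other fits passed the unadjusted threshold for sex, though not the adjusted one. Itga7 had -0.54 with the oligodendrocyte score (edgeR, unadjusted p = 0.0160), -0.51 with the choroid plexus score (0.0277) and -0.49 without Wt mouse 95 (0.0339), and Itga11 had 0.68 without Tg mouse 67 (0.0385). Leaving out Wt mouse 95 also moved the number of all genes that edgeR called for sex from 0 to 540, and leaving out mouse 41 moved it to 1. The fit without mouse 95 takes mouse 41, whose Xist level was that of the females, as its only Wt male. The genotype differences, fitted with sex as a term, were -0.43 for Itga4, -0.43 for Itga8, 0.56 for Itga7 and 0.56 for Itga11 without mouse 41. In that fit the unadjusted edgeR p for genotype was 0.0225 for Itga7 and 0.116 for Itga11, against 0.0558 and 0.0332 with all mice. For Itga4 it was 0.0421 and for Itga8 0.0887. Which genes passed 0.05 thus depended on mouse 41, and none passed after adjustment. Between batches, the log2 difference of batch 2 minus batch 1 was -0.20 for Itga4, 0.09 for Itga8, 0.01 for Itga7 and 0.05 for Itga11, with standard errors of 0.18 to 0.29. None of the 4 passed for batch at either threshold, again with 0% of all genes called by edgeR and 0.151% by DESeq2 at the adjusted threshold and 7.64% in edgeR at the unadjusted one.

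For Itga4 and Itga11 the values of Wt and Tg mice overlapped among the mice labelled female and not among those labelled male. None of the 4 genes passed a test of this contrast between the sexes after adjustment, as given below. For Itga4, the Wt males had 26.6 and 30.1 CPM, above the 3 Tg males at 13.95 to 17.9 CPM. The Wt females at 17.3 to 22.1 CPM lay within the range of the 4 Tg females at 14.0 to 22.9 CPM. For Itga11, the Wt males had 0.844 and 1.17 CPM, below the Tg males at 2.32 to 3.34 CPM, while the Wt females at 1.83 to 2.92 CPM overlapped the Tg females at 1.97 to 3.63 CPM. In both genes the labelled Wt males stood apart from the other mice and from the labelled Wt females.

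The genotype by sex interaction is the log2 fold change in females minus that in males. With batch in the fit it was 0.98 for Itga4 (standard error 0.41) and -1.85 for Itga11 (0.58). This fit does not summarize the ranges above, which pool both batches. The unadjusted edgeR p was 0.0347 for Itga4 and 0.00719 for Itga11, and the adjusted p was 0.992 for both. Itga8 had 0.67 (standard error 0.58) and Itga7 0.02 (0.58). At an adjusted p under 0.1, 0 of the 4 passed in edgeR, DESeq2 or limma-voom, with 0% of all genes called by edgeR and 0.107% by DESeq2. At an unadjusted p under 0.05 it was 2 of 4 in each of the 3 tools, with 3.56% of all genes in edgeR. The Wt males are mice 41 and 95 alone. Batch 2 held only Wt females and Tg males, so with batch in the fit the interaction came almost wholly from batch 1. In batch 1 alone it was 0.99 for Itga4 and -1.85 for Itga11. Of the Wt females only mouse 12, and of the Tg males only mouse 67, were in that batch. Without mouse 12 the interaction was 1.14 for Itga4 (edgeR, unadjusted p = 0.0946) and -1.79 for Itga11 (0.0620). Without mouse 67 it was 0.84 (0.201) and -1.91 (0.0493). Without mouse 41, whose Xist level was that of the females, the interaction was 1.07 for Itga4, -2.10 for Itga11, 0.82 for Itga8 and -0.40 for Itga7, and rested on a single Wt male, which is then assumed to vary like the other mice. Both Wt males also had the lowest oligodendrocyte marker scores of all mice, 5.04 and 5.58 on the log2 CPM scale. With that score in the fit the interaction was 0.87 for Itga4 (edgeR, unadjusted p = 0.0586) and -1.82 for Itga11 (unadjusted p = 0.0113). With batch left out of the fit, the interaction of Itga11 was -1.16 (unadjusted p = 0.0295), that of Itga4 0.75 and that of Itga8 0.19.

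**Figure D3:**
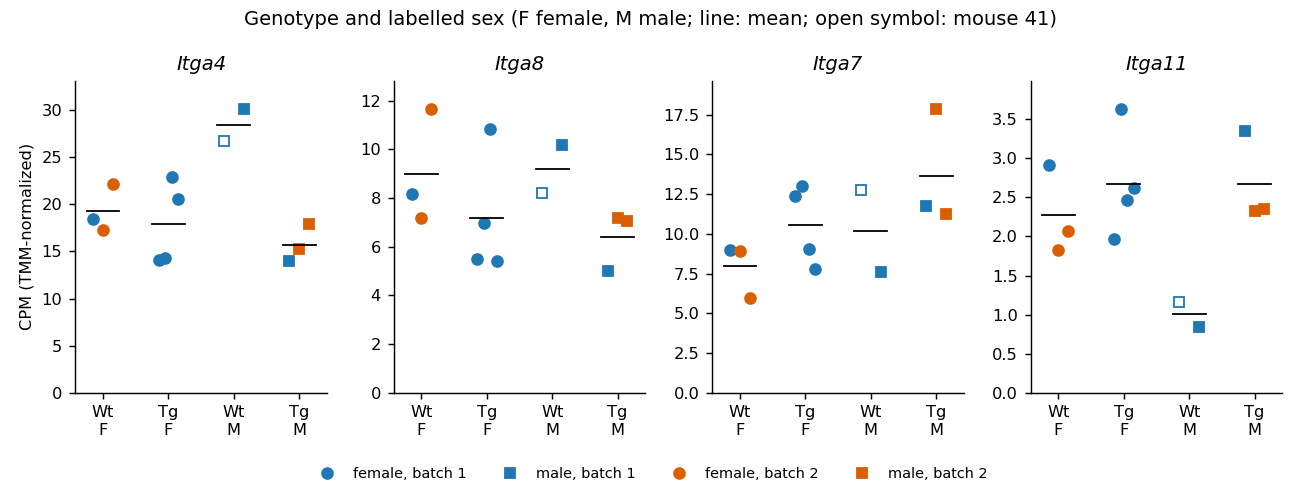
CPM of the 4 genes by genotype and labelled sex, with a line at the mean and mouse 41 as an open symbol. For Itga4 the 2 labelled Wt males lie above every other mouse and for Itga11 below every other mouse.

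How the 4 genes moved together was examined across the 12 mice, with 6 pairs compared on the log2 CPM scale. Itga4 and Itga8 had a Pearson r of 0.70 (permutation p = 0.0124, adjusted over the 6 pairs 0.0372) and a Spearman rho of 0.77 (permutation p = 0.00480, adjusted 0.0288). Without the 2 mice farthest from the median of Itga4, r was 0.70 (adjusted p = 0.0724), in batch 1 alone it was 0.73 (exact permutation p = 0.0495, adjusted 0.149), and after each genotype was centred on its mean it was 0.55 (permutation p = 0.0648, adjusted 0.194). The relation kept its size within batch 1 and was lower within genotypes. An r over all 12 mice also takes in the genotype difference, on which the genes that could be named were mainly selected. Centred within genotype, none of the 6 pairs passed, and the smallest adjusted p was 0.194 (permutation).

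Itga4 and Itga11 had an r of -0.75 (permutation p = 0.00430, adjusted 0.0258) and a rho of -0.49 (permutation p = 0.109, adjusted 0.163). Without Wt mice 41 and 95, the 2 farthest from the median of Itga4, r was -0.29 (permutation p = 0.410), so the relation rests on those mice. In batch 1 alone, which holds both, r was -0.79 (exact permutation p = 0.0169, adjusted 0.102), and centred within genotype it was -0.60 (permutation p = 0.0376, adjusted 0.194).

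The remaining 4 pairs did not pass with both genotypes pooled either. Itga4 and Itga7 had an r of -0.56 (permutation p = 0.0603, adjusted 0.121) and a rho of -0.53 (permutation p = 0.0803, adjusted 0.163). Itga8 and Itga7 had an r of -0.49 (permutation p = 0.108, adjusted 0.163) and a rho of -0.41 (permutation p = 0.185, adjusted 0.222). Itga8 and Itga11 had an r of -0.43 (permutation p = 0.163, adjusted 0.196) and a rho of -0.49 (permutation p = 0.109, adjusted 0.163). The 2 genes with higher means in Tg mice, Itga7 and Itga11, had an r of 0.22 (permutation p = 0.495) and a rho of 0.24 (permutation p = 0.454). With the 2 mice farthest from the median of the first gene left out, r was -0.78 for Itga4 and Itga7 (permutation p = 0.00712, adjusted 0.0427), -0.20 for Itga8 and Itga7, -0.64 for Itga8 and Itga11, and 0.27 for Itga7 and Itga11. In batch 1 alone r was -0.57, -0.38, -0.48 and 0.25 for these 4 pairs in the same order, and centred within genotype it was -0.37, -0.28, -0.14 and -0.13.

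**Figure D4:**
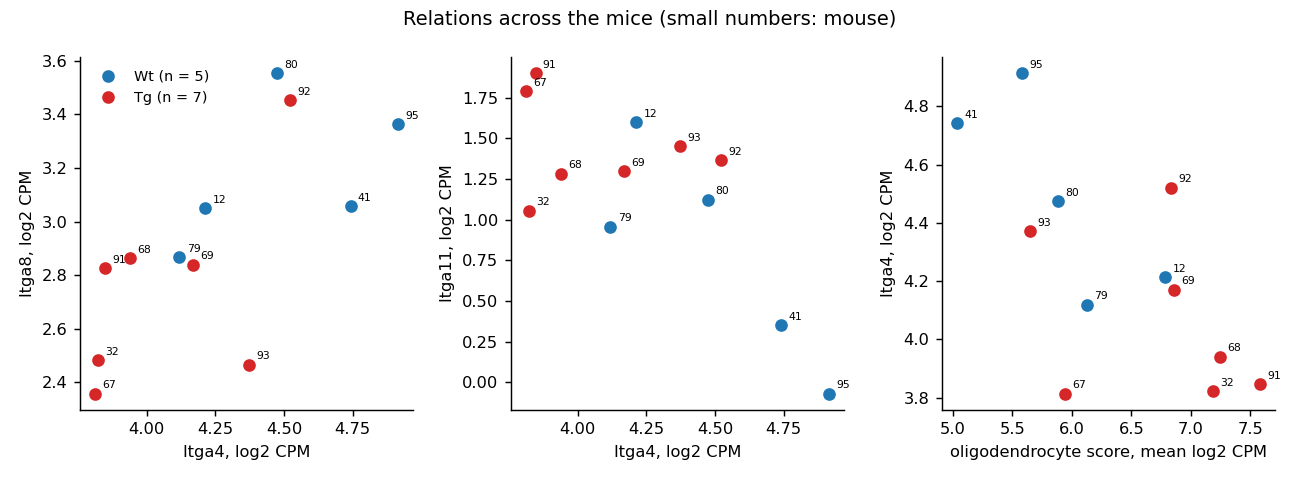
Log2 CPM of Itga8 and of Itga11 against that of Itga4, and of Itga4 against the mean log2 CPM of the oligodendrocyte markers, 1 point for each of the 12 mice. The points of mice 41 and 95 lie at the far end of the plot of Itga11 against Itga4, where r was -0.75 with and -0.29 without them.

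Of 8 relations between the 4 genes and the choroid plexus and oligodendrocyte marker scores, none passed after adjustment. The largest was that of Itga4 with the oligodendrocyte score, with an r of -0.69 (permutation p = 0.0159, adjusted over the 8 relations 0.127) and a rho of -0.66 (permutation p = 0.0248, adjusted 0.197). Without the 2 mice farthest from the median score r was -0.53, in batch 1 alone -0.66 and centred within genotype -0.53. Itga11 had the opposite sign, with an r of 0.59 (permutation p = 0.0421, adjusted 0.168) and a rho of 0.45 (permutation p = 0.147, adjusted 0.393), and an r of 0.31 without the 2 farthest mice. The other 6 relations, including those of Itga8 with an r of -0.15 for the oligodendrocyte and 0.06 for the choroid plexus score, had adjusted p of 0.248 or more for r and 0.197 or more for rho. Among them, Itga7 had an r of 0.40 with the choroid plexus and 0.48 with the oligodendrocyte score, and of 0.79 and 0.71 without the 2 mice farthest from the median score (permutation p = 0.00670 and 0.0176, adjusted 0.0536 and 0.0706).

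Among the 1348 other named genes, the genes whose pattern over the 12 mice was most like that of each member were taken by Pearson r of log2 CPM after centring each genotype on its mean. For Itga4 they were led by Ptprg, a receptor tyrosine phosphatase gene (r = 0.89, with 109.3 ± 13.6 CPM in Wt and 92.6 ± 9.15 in Tg mice) and Homer2, a postsynaptic scaffold gene (r = 0.89, 96.5 ± 24.3 and 78.5 ± 13.1 CPM). For Itga8 they were led by Hectd2 (r = 0.84, 16.1 ± 2.91 and 11.5 ± 1.85 CPM) and Dnaja4, a chaperone gene (r = 0.83, 41.2 ± 4.04 and 35.6 ± 3.41 CPM). Next for Itga8 came Pon3 (r = 0.80, 1.77 ± 0.55 and 2.91 ± 1.54 CPM), whose means differed between genotypes in the direction opposite to Itga8. For Itga7 they were Sema6c, a semaphorin gene (r = 0.91, 8.15 ± 2.04 and 10.3 ± 1.97 CPM) and Elmo3 (r = 0.86, 0.802 ± 0.217 and 1.46 ± 0.54 CPM). For Itga11 they were Adamtsl3 (r = 0.84, 1.46 ± 1.14 and 2.05 ± 0.75 CPM) and Tacr1, the receptor of substance P (r = 0.84, 6.36 ± 3.96 and 7.53 ± 1.07 CPM). These values, each the mean ± SD of 5 Wt and 7 Tg mice, describe the tightest of many correlations over the same libraries and were not tested.

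The rest of the pathway was read from lists of integrin ligands and of adaptors and signalling genes. Of 77 ligand genes 12 had a recovered name, of which 10 had a positive and 2 a negative log2 fold change. At an adjusted p under 0.1 none was called by edgeR or limma-voom, and DESeq2 called 2, Col18a1 and Col9a3. At an unadjusted p under 0.05 in edgeR it was 9 of 12, beside 7.19% of all genes and 81.3% of the named genes. The median log2 fold change of the 12 was 0.56, that of the 1349 named genes 0.32 and that of all 15928 genes -0.003. The 3 ligand genes with the smallest p were Col18a1, Spp1 and Col9a3.

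Col18a1, the gene of a basement membrane collagen, had 4.55 ± 1.61 CPM (SD, n = 5) in Wt and 8.45 ± 1.27 CPM (SD, n = 7) in Tg mice, and no Wt mouse reached the lowest Tg mouse. Its log2 fold change was 0.96 with a standard error of 0.22 (adjusted p = 0.597 in edgeR and 0.0233 in DESeq2). Genes with all Tg mice above all Wt mice made up 0.22% of all genes and 2.52% of the named ones. Spp1, which encodes osteopontin, a ligand with an Arg-Gly-Asp motif, had 1.56 ± 1.60 CPM in Wt and 5.24 ± 3.99 CPM in Tg mice, and 3 of 7 Tg mice exceeded every Wt mouse (log2 fold change 1.92, standard error 0.51, adjusted p = 0.597 in edgeR and 0.134 in DESeq2). Col9a3, a chain of collagen IX, had 4.50 ± 1.21 and 10.5 ± 5.13 CPM (log2 fold change 1.24, standard error 0.35, adjusted p = 0.610 in edgeR and 0.0764 in DESeq2), with 5 of 7 Tg mice above the Wt range.

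Lama5, a laminin chain and thus of the ligand class of the alpha 7 subunit, had 13.2 ± 3.96 CPM in Wt and 17.5 ± 3.0 CPM in Tg mice (log2 fold change 0.39, standard error 0.18, edgeR adjusted p = 0.697). Thbs4, Nid1, Nid2, Bgn, F11r and Jam3 had log2 fold changes between 0.34 and 0.74. The 2 ligand genes with a negative value were Reln and Icam5, at -0.27 each. Reln encodes reelin, a matrix protein of neurons, and Icam5 an adhesion molecule of neuronal dendrites.

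Of 76 adaptor and signalling genes 12 had a recovered name, 6 with a positive and 6 with a negative log2 fold change, and none was called by edgeR, DESeq2 or limma-voom at an adjusted p under 0.1. At an unadjusted p under 0.05 in edgeR it was 8 of 12, against the same 7.19% of all genes and 81.3% of the named genes, and their median was 0.01. The 3 with the smallest p all had positive values, Cd9 at 0.65 (standard error 0.19), Cd63 at 0.37 (0.12) and Lims2 at 0.44 (0.15), with edgeR adjusted p of 0.610 to 0.611. Cd9 and Cd63 encode tetraspanins, which associate with integrins in the membrane, and Lims2 encodes PINCH2, a partner of integrin-linked kinase. Flnc at 0.69, Dab2 at 0.54 and Cd81 at 0.20 were also positive. Of the parvins, which bind integrin-linked kinase and actin, Parva had no recovered name. Parvb at -0.25 and Parvg at -0.52 had negative values. So had Tgfb1i1, which encodes the focal adhesion protein Hic-5, at -0.32, Actn1, an actin crosslinker, at -0.23, Ptk2b, the focal adhesion kinase relative Pyk2, at -0.18 and Arhgef7 at -0.18.

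**Figure D5:**
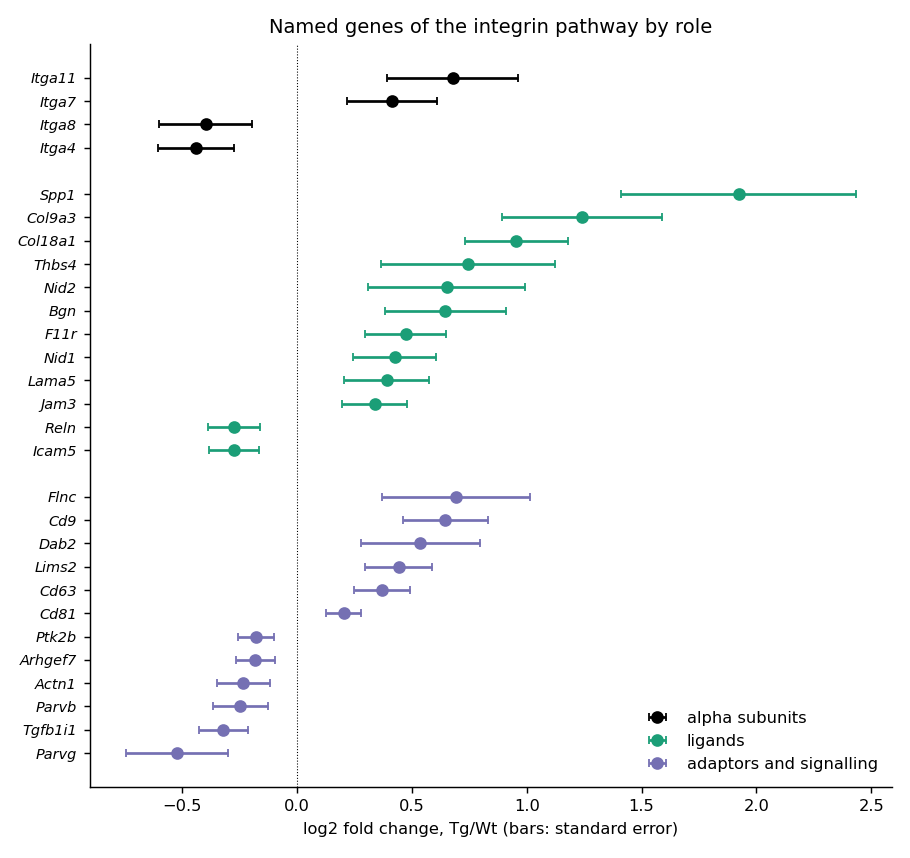
Log2 fold change, Tg over Wt, with its standard error for the 28 named genes of the integrin pathway, grouped as alpha subunits, ligands, and adaptors and signalling genes. Positive values were found for 2 of 4 alpha subunits, 10 of 12 ligands and 6 of 12 adaptors, and no gene of the plot passed an adjusted p of 0.1 in edgeR, while Col18a1 and Col9a3 passed in DESeq2.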

How the data were processed

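Total RNA of brain sections from 12 mice was depleted of ribosomal RNA, and libraries were prepared with a total RNA kit. Per the labels, STAR, Bowtie2, edgeR and DESeq2 were used with mm10, and their versions are not given in the sources used here. The authors counted unique reads per gene and deposited raw counts, without names or normalization, of the 15928 genes left by their filter on low counts. A second deposited table gives each library's size, batch and normalization factor, a ratio computed by the authors. The authors' columns of fold changes and p-values were not used.

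The 12 size factors were solved from the counts and the means of the study's DESeq2 table, and 1349 of 1684 names were matched to a single row within a relative difference of 1e-09. Genotype and sex came from the labels and the batch from the deposited table.

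Genes were tested with edgeR 4.0.16 (quasi-likelihood, sex + batch + genotype, TMM, filterByExpr, which removed 0 genes), with the interaction of genotype and sex in a fit of its own, and Benjamini-Hochberg adjustment over all genes at 0.1. The biological coefficient of variation came to 0.201. Alternatives used DESeq2 1.42.0 and limma 3.58.1. For single genes, log2 CPM with a prior count of 2 was permuted exactly over all 792 splits, and correlations with 100000 permutations in scipy 1.17.1. The fits were tested on simulated data. Depth was 15768135 to 20996174 counts per mouse. Replicates are separate mice.

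The members and gene lists were chosen with earlier results of these data known. Named were the members, App, Xist, the most similar genes and the named genes of the integrin lists. Of each role the 3 genes with the smallest p were given in full. Of the most similar genes the rule takes 3 for each member, and the first 2 are printed, with Pon3 added for Itga8. The single cell type markers (Prlr and Aspa among them), the ligands and adaptors outside the first 3, and Itgad and Itgax were named beyond this rule, after values were seen. Alternatives covered the tool, normalization, filter, covariates, marker scores, batch 1 alone, and each mouse left out.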

Additional observations from a re-analysis of the deposited data

Results flagged for a closer look

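Of the 8 groups formed by the 4 genes and 2 genotypes, 1 held a mouse that stood apart from the others of its group by Dixon's test at the 95% level. Tg mouse 92 had 10.8 CPM of Itga8, while the other 6 Tg mice lay between 5.02 and 7.17 CPM. Chance flags about 1 in 20 such groups. The genotype by sex interactions of Itga4 and Itga11 did not pass the adjusted threshold.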

How the results depend on the processing

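The log2 fold changes of the 4 genes between genotypes kept their sign and stayed without a call in each of the 99 refits made (25 for Itga4, Itga8 and Itga7, and 24 for Itga11, which has no value with more than 1 CPM asked in all mice because the filter removed it). Over these refits Itga4 lay between -0.52 and -0.24, Itga8 between -0.62 and -0.29, Itga7 between 0.09 and 0.56 and Itga11 between 0.45 and 0.94, and the smallest adjusted p was 0.324, 0.553, 0.468 and 0.299. The number of genes called over the whole table, 1 in the test as reported, was 56 with DESeq2, 2 with more than 1 CPM in all mice, 2 with the choroid plexus score, 2 with the oligodendrocyte score and 0 in batch 1 alone, and 1 to 2 with each mouse left out. The cause was not tested. The 18 named integrin genes with a positive log2 fold change numbered within 1.5 times of that under each of the 25 alternatives.

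Values near 0 changed sign. The sex effect on Itga8 was -0.030 with the choroid plexus score and -0.058 to 0.20 with each mouse left out. The batch effect on Itga8 was -0.025 with that score and -0.052 to 0.25 with each mouse left out. The batch effect on Itga7 was -0.14 with the choroid plexus and -0.12 with the oligodendrocyte score, and -0.19 to 0.16 with each mouse left out. The batch effect on Itga11 was -0.035 without sex in the fit, -0.0099 with the oligodendrocyte score and -0.12 to 0.23 with each mouse left out. The interaction on Itga7 was -0.012 without batch in the fit and -0.052 with the choroid plexus score, and -0.54 to 0.60 with each mouse left out. The r of Itga7 and Itga11 was -0.13 centred within genotype, that of the choroid plexus score and Itga8 was -0.14 without the 2 farthest mice, and that of the oligodendrocyte score and Itga8 was 0.24 centred within genotype. The ratio of Itga4 to Itga7 with the length of the longest transcript was added after the data were seen and stands beside the levels. No paired analysis was possible because the mice of the groups share no replicate numbers. Depth limits Itga11 most, with 15 reads in its lowest library, and intervals for the other genes are set by the spread between mice.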
